A study of Homo sapiens with 4 samples.

Results

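Berberine treatment of HepG2 human hepatoma cells left miR-192, miR-194 and miR-215 less than 2-fold from their controls after 2 h and after 4 h. These are the main strands of 2 small clusters of microRNAs (miRNAs) that are rich in liver and intestine. They were chosen by name, as the 3 entries that the array files call hsa-miR-192, hsa-miR-194 and hsa-miR-215, out of 851 human miRNAs listed. All 3 were found and all 3 were detected on every array, as were 197 human miRNAs in total.

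HepG2 is an established human hepatoma cell line. Its cultures received either the plant alkaloid berberine chloride at 40 µM or the solvent alone, 0.08% dimethyl sulfoxide (DMSO), and RNA was isolated 2 h or 4 h later. A single-colour Agilent miRNA array was run for each of these 4 conditions, on a single slide and in a single scan. How much cultures of the same condition differ is therefore unknown, and no test was made within a time.

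A miRNA is cut from a hairpin, and 1 strand of the resulting duplex is usually kept while the other, its passenger strand, is mostly lost. The kept strand recognises target mRNAs mainly through its seed, bases 2 to 8, and lowers their translation and stability. miR-192, miR-194 and miR-215 are known as miRNAs of hepatocytes and intestinal epithelium. Both clusters are also known to respond to the tumour suppressor p53, and miR-192 and miR-215 can restrain the cell cycle.

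The mature sequences are shown because they decide which of the 3 can be told apart, and because 2 of them share a seed. All were taken from RefSeq (GRCh38.p14) by name, for which the files' hsa-miR-192, hsa-miR-194 and hsa-miR-215 were read as the -5p strands. Each runs 5′ to 3′ with the seed in capitals.
hsa-miR-192: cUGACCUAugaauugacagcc
hsa-miR-215: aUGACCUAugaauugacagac
hsa-miR-194: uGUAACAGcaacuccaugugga

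miR-192 and miR-215 carried the same seed, and no other mature human miRNA in the RefSeq table shared it. The full strands were identical at 19 of 21 bases. Counted from the 5′ end of miR-192, the 2 differences were C1A and C20A, both outside the seed. How far the probes of one also bind the other was not tested, so the signals of miR-192 and miR-215 may not be fully separate. miR-194 has a seed of its own, which no other human miRNA in the table shared.

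The genes lie in 2 pairs. On chromosome 11, MIR192 (chr11:64891137-64891246, minus strand) and MIR194-2 (chr11:64891355-64891439, minus strand) are separated by 108 bases, and the gene table places both within the long non-coding RNA gene MIR194-2HG. MIR215 (chr1:220117853-220117962, minus strand) and MIR194-1 (chr1:220118157-220118241, minus strand) are separated by 194 bases on chromosome 1. By position, both fall inside IARS2, a protein-coding gene for a mitochondrial isoleucyl-tRNA synthetase, and inside the long non-coding RNA gene LOC124904515. The strands of IARS2 and LOC124904515 are not given here, so neither is named as the source of the hairpins. The mature miR-194 of MIR194-1 and of MIR194-2 is the same sequence, so its signal sums both clusters. miR-192 is encoded on chromosome 11 alone and miR-215 on chromosome 1 alone, within the limit on probe binding given above. These positions are of GRCh38.p14, while the array files name the older build hg18 and give no positions.

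The total signal of a miRNA is the background-subtracted intensity summed over its probes, with an error (±) set by the scanner software. For miR-192 it was 1268 ± 93.4 in control cells and 821 ± 60.7 in berberine-treated cells at 2 h, and 1069 ± 78.3 and 1565 ± 113 in those at 4 h. For miR-194, in the same order, the total signal was 744 ± 56.7, 498 ± 37.8, 566 ± 43.3 and 931 ± 70.6. For miR-215 it was 708 ± 50.2, 486 ± 34.5, 626 ± 44.4 and 921 ± 65.2. As deposited, all 3 were dimmest on the berberine array at 2 h and brightest on the berberine array at 4 h.

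The arrays as a whole differed in brightness in the same direction: their 75th percentile, taken over the 197 miRNAs that were always detected, was lowest for berberine at 2 h (169, control 243) and highest for berberine at 4 h (297, control 225). Signals were divided by it to make arrays comparable. miR-192 then stood at 5.21 times the percentile in control and 4.86 times in berberine-treated cells at 2 h, and at 4.74 and 5.26 times at 4 h. In the same order, miR-194 stood at 3.06, 2.94, 2.51 and 3.13 times the percentile. miR-215 stood at 2.91, 2.87, 2.78 and 3.10 times. Levels are compared here only within a miRNA, since probes of different miRNAs need not be equally bright for equal amounts of RNA.

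**Figure D1:**
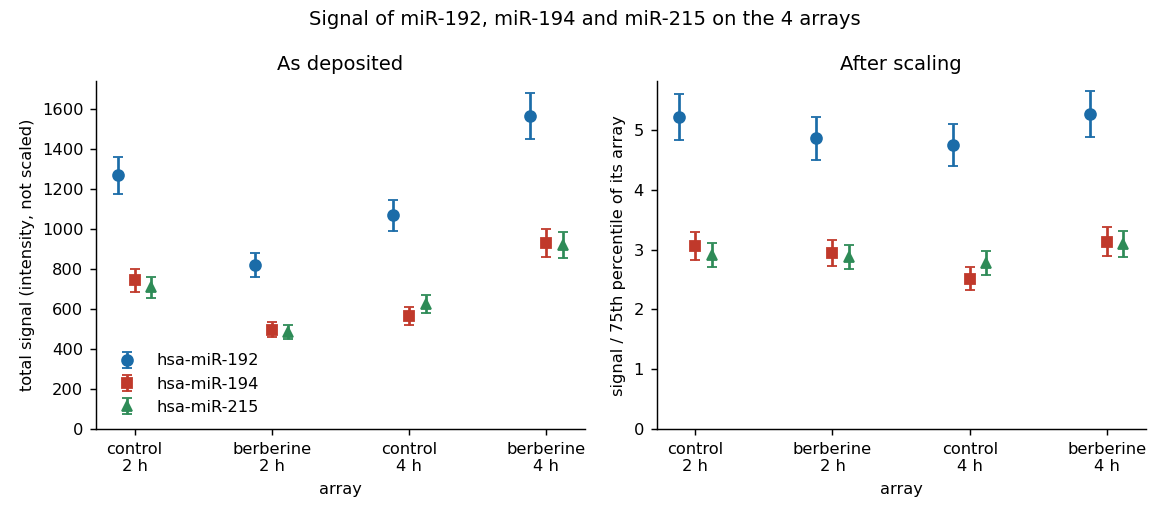
Signal of miR-192, miR-194 and miR-215 on each of the 4 arrays (x axis), as the deposited total signal in intensity units (left) and divided by the 75th percentile of the array (right); points are single arrays and bars are the error of the scanner software. The 3 miRNAs follow the brightness of the arrays on the left, and on the right each lies within a narrow band, with miR-194 lowest on the control array at 4 h (2.51 times the percentile).

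From highest to lowest, the scaled levels of all 3 miRNAs came in 1 order under this scaling: berberine at 4 h, control at 2 h, berberine at 2 h and control at 4 h. No 2 neighbours in this order differed beyond 1.96 standard errors (SE) of the measurement, for any of the 3. Between the highest and the lowest array, the log2 difference was 0.15 (SE 0.15) for miR-192, 0.16 (SE 0.14) for miR-215 and 0.32 (SE 0.16) for miR-194. Of these, the difference of miR-194 alone passed 1.96 SE. Such an SE holds the error of reading an array, but no difference between cultures.

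After 2 h of berberine, all 3 miRNAs were close to their control. The log2 ratio of berberine over control was -0.10 (SE 0.15) for miR-192, which is 0.932-fold with a 95% measurement range of 0.759 to 1.14. It was -0.05 (SE 0.16) for miR-194, or 0.963-fold with a range of 0.780 to 1.19. For miR-215 it was -0.02 (SE 0.14), or 0.988-fold with a range of 0.811 to 1.20. None of the 3 passed 2-fold, the boundary of the study's methods, which 1.02% of the 197 miRNAs detected on both arrays passed. None lay beyond 1.96 SE of no change, against 9.14% of the 197. Counted from the highest ratio, they ranked 95 (miR-215), 120 (miR-194) and 156 (miR-192) of 197, around the median log2 ratio of -0.02 over all. Under quantile normalization the 3 log2 ratios were not below 0, at 0.00 for miR-192, 0.03 for miR-194 and 0.04 for miR-215.

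After 4 h the log2 ratios were above 0 for all 3, although those of miR-192 and miR-215 were -0.02 and -0.01 when arrays were scaled to their median. That of miR-192 was 0.15 (SE 0.15), or 1.11-fold with a range of 0.907 to 1.36, and that of miR-215 was 0.16 (SE 0.14), or 1.12-fold with a range of 0.917 to 1.36. miR-194 had the highest of the 3, at 0.32 (SE 0.16), or 1.25-fold with a range of 1.01 to 1.54. None of the 3 passed 2-fold, which 0.917% of the 218 miRNAs detected on both arrays passed. Beyond 1.96 SE of no change lay 1 of the 3, miR-194, against 11.5% of the 218. With scaling to the median, quantile normalization or the brightest probe of each miRNA, the log2 ratio of miR-194 was 0.15, 0.22 or 0.21, each within 1.96 of the SE given above. The last setting also changes the scaling of the arrays, since the brightest probe of miR-194 had 0.33 with the scaling used here. The median log2 ratio over all 218 was itself 0.11, so that miR-192, miR-215 and miR-194 stood only 0.04, 0.05 and 0.21 above it on the log2 scale. In rank from the highest they were 87, 78 and 32 of 218.

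**Figure D2:**
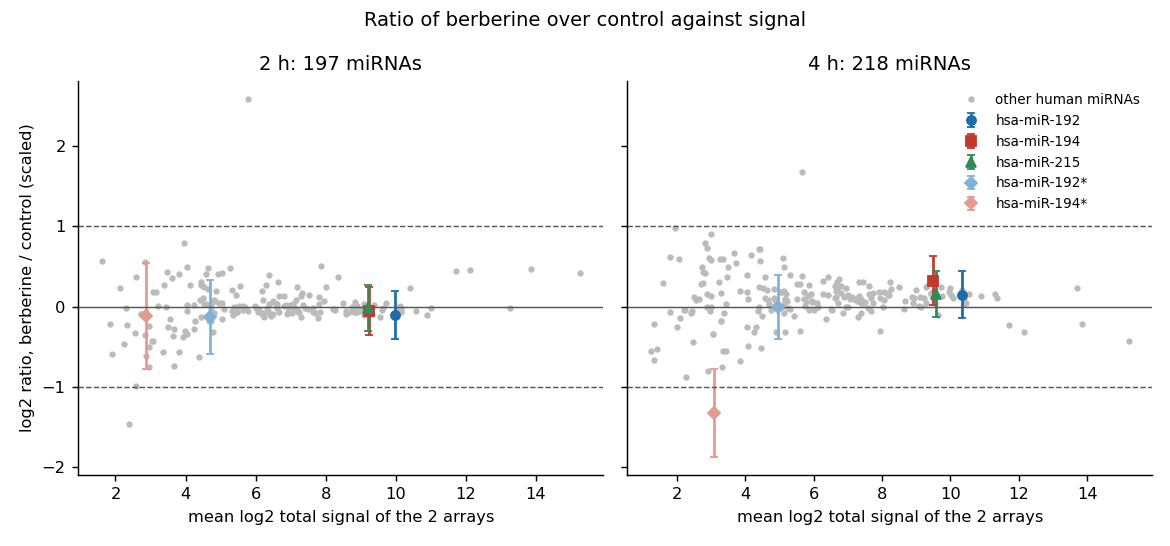
Scaled log2 ratio of berberine over control (y axis) against the mean log2 total signal of the 2 arrays (x axis) at 2 h (left) and 4 h (right); grey points are the other human miRNAs detected on both arrays, bars are 1.96 SE of the measurement and dashed lines mark 2-fold. The 3 main strands lie on the right of each panel and near 0, while the dim passenger strand hsa-miR-194* is the lowest of 218 at 4 h.

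The 2 control samples, without any berberine, give a ratio for comparison. The log2 ratio of 4 h over 2 h was -0.28 (SE 0.16) for miR-194, -0.14 (SE 0.15) for miR-192 and -0.07 (SE 0.14) for miR-215, against a median of -0.08 over 219 miRNAs. None of the 3 passed 2-fold or lay beyond 1.96 SE, which 2.28% and 6.85% of the 219 did. Scaling to the median gave -0.07 for miR-194, and values above 0 for miR-192 (0.08) and miR-215 (0.14). Set against the control array at 2 h instead of that at 4 h, miR-194 on the berberine array at 4 h had a log2 ratio of 0.04 (SE 0.16). In that pair time and treatment cannot be told apart, and in every pair the array and the condition cannot. With RNA from whole cultures, a change in the level per cell and a change in the mix of cells cannot be told apart either.

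The 3 miRNAs were carried by 6 probes, 2 for each, with 8 spots for each probe on each array. No spot of theirs was saturated, and the scanner software set aside 19 of their 192 spots as outliers. Without these, the coefficient of variation (CV) between spots of 1 probe on 1 array was 4.45% at the median, which is below the errors of about 7% that the software gives for their total signals. The CV ran from 0.410% to 12.3% while those errors hardly varied, so the errors do not follow the spread of the spots. At 2 h all 6 probes were lower with berberine, by log2 ratios between -0.13 and -0.02. So were 114 of the 197 miRNAs. The scaled spots of the berberine and control arrays at 2 h overlapped for each of the 6 probes. At 4 h all 6 were higher with berberine, by log2 ratios between 0.12 and 0.36, but 4 of the 6 with arrays scaled to their median, and 69.7% of the 218 miRNAs were higher too. Here the spots did not overlap for 3 of the 6, and for 2 of the 6 with the outlier spots included. Between the 2 control arrays, without berberine, all 6 probes were lower at 4 h, but 2 of the 6 with arrays scaled to their median, and 169 of the 219 miRNAs were lower too. The spots of the control arrays did not overlap for 3 of the 6, with or without the outlier spots. Overlap was not counted over all probes of the arrays. These counts are therefore not read as particular to the 3 miRNAs.

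miR-194 showed the largest probe ratios, with log2 ratios at 4 h of 0.36 (SE over spots 0.06) for the first probe and 0.33 (0.07) for the second. Its 2 probes also had the widest spot spread of the 3 miRNAs, on the control array at 4 h, with CVs of 12.1% and 12.3%, against 2.20% and 1.83% on the control array at 2 h. Over the 98 brighter miRNAs of the array, the median CV was 5.58% on the control array at 4 h and 3.28% on that at 2 h, with 4.68% and 3.85% on the berberine arrays at 2 h and 4 h. The part of this wider spread in the ratio of miR-194 was not tested. On the berberine array at 4 h, 1 outlier spot of its second probe read 9.74, where the other 7 lay between 1179 and 1328. For miR-192 at 4 h the 2 probes gave log2 ratios of 0.12 (SE over spots 0.04) and 0.24 (0.04), and for miR-215 they gave 0.16 (0.03) and 0.19 (0.02). Spots are repeats within an array, so these SE hold no difference between cultures.

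**Figure D3:**
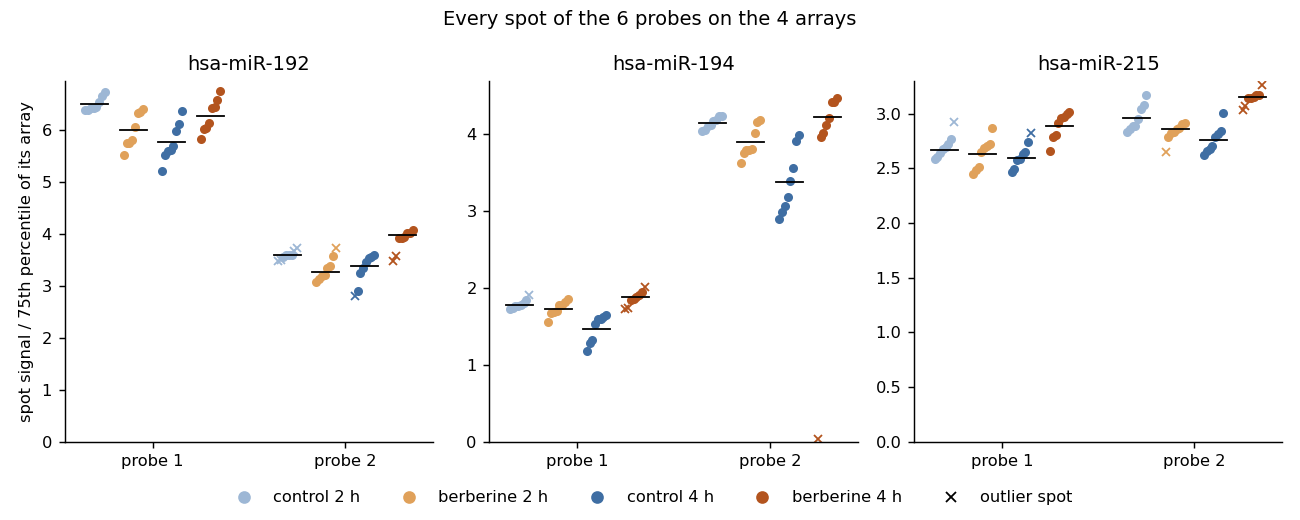
Every spot of the 2 probes of each miRNA on the 4 arrays, as spot signal divided by the 75th percentile of its array (y axis); colours are arrays, crosses are spots set aside by the scanner software and black lines are means without them. At 2 h the berberine and control spots overlap for all 6 probes, and the spots of miR-194 are most spread on the control array at 4 h (CV 12.1% and 12.3%).

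Differences between the responses of the 3 miRNAs were taken within the same arrays, where the scaling to a percentile cancels. At 2 h the log2 ratio of miR-192 was 0.05 below that of miR-194 (-0.05, 95% measurement range -0.47 to 0.38) and 0.08 below that of miR-215 (-0.08, range -0.49 to 0.32), while miR-194 minus miR-215 was -0.04 (range -0.45 to 0.38). At 4 h, miR-192 minus miR-194 was -0.17 (range -0.59 to 0.25). miR-194 minus miR-215 was 0.16 (range -0.25 to 0.58), and miR-192 minus miR-215 was -0.01 (range -0.41 to 0.40). None of the 6 differences passed 1.96 SE. The ranges still allow differences of up to 0.59 on the log2 scale, so equal responses are not shown.

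A limma model with a term for treatment and a term for time was run on the 197 miRNAs that all 4 arrays detected. It takes the 2 times in place of replicates and has 1 residual degree of freedom. The mean log2 ratio of berberine over control was 0.02 for miR-192 (95% confidence interval -0.39 to 0.44, adjusted p = 0.997 from limma with Benjamini-Hochberg adjustment). It was 0.13 for miR-194 (-0.28 to 0.55) and 0.07 for miR-215 (-0.34 to 0.48), with the same adjusted p of 0.997 from limma. With arrays scaled to their median the means of miR-192 and miR-215 turned below 0 (-0.068 and -0.022), and that of miR-192 did so without scaling (-0.039) and with the brightest probe (-0.049) too. None of the 3 was called, where 0.508% of the 197 were. With the scaling used here, each was higher with berberine at 1 of the 2 times. With the control array at 4 h and the time term left out, the means of miR-192 and miR-194 were -0.044 and -0.0090. With the control array at 2 h left out instead, that of miR-194 was 0.27.

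The array also listed the passenger strands hsa-miR-192* and hsa-miR-194*, now called -3p, and none for miR-215. Their sequences are shown because the log2 ratio of hsa-miR-194* differed from that of its main strand at 4 h. RefSeq places this strand in MIR194-2 alone, so it reports on chromosome 11.
hsa-miR-192*: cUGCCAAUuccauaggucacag
hsa-miR-194*: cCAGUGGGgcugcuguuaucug

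The total signal of hsa-miR-192* was 32.3 ± 2.91 (control) and 20.5 ± 2.75 (berberine) at 2 h, and 26.8 ± 2.92 and 35.2 ± 3.13 at 4 h. Its log2 ratio was -0.13 (SE 0.23) at 2 h and -0.01 (SE 0.20) at 4 h, and it differed from that of miR-192 by -0.03 (SE 0.28) and -0.16 (SE 0.25). Neither difference passed 1.96 SE. With normexp background correction the log2 ratio of hsa-miR-192* was 0.22 at 2 h and -0.22 at 4 h, and without scaling it was -0.65 and 0.39, so its direction is not settled. hsa-miR-194* had total signals of 9.16 ± 1.04 and 5.90 ± 1.20 at 2 h and 11.7 ± 1.38 and 6.15 ± 0.948 at 4 h. Its log2 ratio was -0.11 (SE 0.34) at 2 h and -1.32 (SE 0.28), or 0.400-fold, at 4 h. The latter was the lowest of 218 ratios. With 4 of 16 spots well above background after berberine at 4 h, its size and rank are not exact. At 2 h the direction of hsa-miR-194* turned with the processing, from -0.40 with the brightest probe to 0.22 with quantile normalization and 0.34 with normexp.

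Against its own main strand, hsa-miR-194* was 1.64 lower in log2 ratio at 4 h (-1.64, 95% measurement range -2.27 to -1.01), and at 2 h the difference was -0.06 (range -0.78 to 0.67). Between the 2 control arrays, without berberine, the difference was 0.74 (range 0.19 to 1.30), which also passed 1.96 SE. Of its 4 probes, 2 were above their detection limit on all arrays, and their log2 ratios at 4 h were -1.37 (SE over spots 0.40) and -1.25 (0.37). On the control array at 4 h, 1 spot of each lay far above the other 3, at 35.1 against 11.4 to 18.6 and at 41.9 against 16.5 to 21.3 (CV 51.4% and 46.7%). Without that spot the ratios were -0.96 and -0.88, both short of 2-fold. The scaled spots of the berberine array lay below those of the control array for both, with 4 spots for each probe on each array. Overlap was not counted over all probes of the arrays, so this is not read as particular to the strand. Of its 16 spots, 7 in the control sample and 4 after berberine were well above background at 4 h. At 2 h these were 8 and 1. Its ratios at both times therefore rest on a berberine signal close to background. On the control array at 4 h, the total signal of hsa-miR-194* was also above that at 2 h (log2 ratio of the controls 0.46, SE 0.24), opposite in sign to miR-194. Against the control array at 2 h, hsa-miR-194* on the berberine array at 4 h had a log2 ratio of -0.86 (SE 0.28). Over both times the mean was -0.72, which was not called (adjusted p = 0.203 from limma). The log2 ratio at 4 h ran from -2.68 with quantile normalization to -0.47 with normexp background correction, and was -0.92 without scaling. The low value was known before these comparisons were chosen, so it is given as a description.

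The miRNAs most like the 3 over the arrays were found from the root mean square difference of the scaled log2 signals, each minus its own mean over the 4 arrays, among 196 candidates. Nearest to miR-192 were hsa-miR-22 (difference 0.015), hsa-miR-660 (0.015) and hsa-miR-425 (0.018). Nearest to miR-194 were hsa-miR-210 (0.019), hsa-miR-29c (0.030) and hsa-miR-99b (0.031), which shared its low value on the control array at 4 h, with 0.21, 0.16 and 0.19 below their means (-0.21, -0.16 and -0.19). Nearest to miR-215 were hsa-miR-20b (0.008), hsa-miR-362-5p (0.013) and hsa-miR-425 (0.017). Likeness over 4 arrays that share their scaling is a weak measure, and many miRNAs were close. The 3 were not each other's nearest: miR-215 ranked 15 among the candidates for miR-192, and miR-194 ranked 77, at differences of 0.033 and 0.076 against a median difference of 0.094 from miR-192. For miR-194, miR-192 ranked 26 and miR-215 ranked 35, and for miR-215, miR-192 ranked 31 and miR-194 ranked 90.

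**Figure D4:**
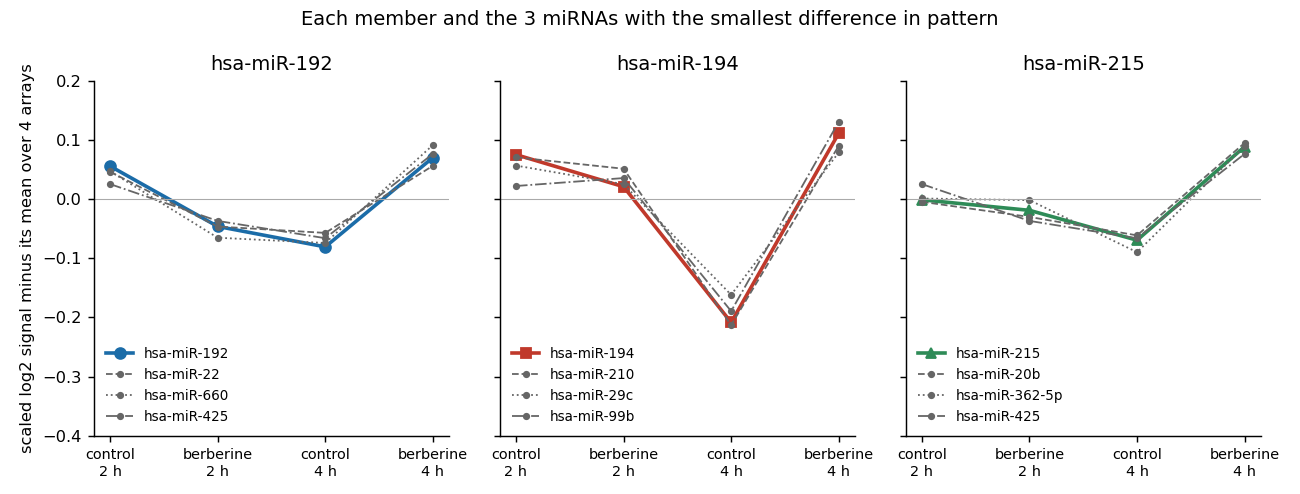
Scaled log2 signal minus its mean over the 4 arrays (y axis) on each array (x axis), for miR-192, miR-194 and miR-215 (coloured) and the 3 miRNAs nearest to each (grey). The grey lines follow each coloured line because they were chosen for that, and miR-194 is at -0.21 on the control array at 4 h.

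Other miRNAs known from liver give the setting. All 8 of the liver-rich miRNAs examined were detected on every array, none passed 2-fold at either time (1.02% and 0.917% of all miRNAs tested did at 2 h and 4 h), and their median log2 ratio was -0.01 at 2 h and 0.16 at 4 h, beside -0.02 and 0.11 over all miRNAs tested. hsa-miR-148a had a total signal of 1870 (control) and 1253 (berberine) at 2 h and of 1593 and 2313 at 4 h, and its log2 ratios were -0.05 (SE 0.15) and 0.14 (SE 0.15). hsa-miR-122, the miRNA most typical of mature hepatocytes, had total signals from 22.4 to 39.9 over the 4 arrays, with log2 ratios of 0.03 (SE 0.22) and 0.01 (SE 0.19).

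Among 8 miRNAs described as p53 targets or as processed with its help, 5 were detected on all 4 arrays, and 0 of the 5 passed 2-fold at either time, again near the share over all. Their median log2 ratio was -0.01 at 2 h and 0.10 at 4 h. hsa-miR-34a, the best known direct p53 target among them, had log2 ratios of 0.003 (SE 0.15) and 0.04 (SE 0.15). Of its relatives, the listed strands hsa-miR-34b and hsa-miR-34c-5p were detected on no array, while hsa-miR-34b*, the other strand of the former, had log2 ratios of 0.08 (SE 0.16) and 0.12 (SE 0.15). Of 7 epithelial and intestinal miRNAs, 5 were detected on all 4 arrays and 0 passed 2-fold, with medians of -0.05 and 0.10. No member of these 3 lists lay beyond 1.96 SE of no change at either time, beside 9.14% of all miRNAs tested at 2 h and 11.5% at 4 h, so that a count of 0 in lists this short is near the share over all. hsa-miR-200b, an epithelial miRNA which helps to keep cells epithelial, had log2 ratios of -0.04 (SE 0.16) and 0.07 (SE 0.15).

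Most markers of other cell types were detected on no array, but so were 599 of the 851 human miRNAs, a similar share. Of 14 such miRNAs, 10 were detected on no array, among them hsa-miR-223 of myeloid cells, hsa-miR-126 of endothelium, hsa-miR-9 and hsa-miR-124 of neurons and all 4 of muscle. hsa-miR-145, known from smooth muscle and fibroblasts, had the highest total signal of the 14, which is no ranking of RNA amounts, and was detected on every array, from 19.7 to 42.3. hsa-miR-142-3p, hsa-miR-451 and hsa-miR-143 were detected on the berberine array at 4 h alone, at 6.13, 5.31 and 3.95. The summed signal of the 14 was 30.8 (control) and 19.7 (berberine) at 2 h and 29.9 and 57.7 at 4 h, not scaled between arrays. Divided by the 75th percentile of the array it was 0.127 and 0.117 at 2 h and 0.133 and 0.194 at 4 h. Undetected miRNAs add nothing to this sum, so hsa-miR-142-3p, hsa-miR-451 and hsa-miR-143 enter it on the berberine array at 4 h alone. That array was also the brightest and detected the most human miRNAs (242). By itself, hsa-miR-145 had a log2 ratio of 0.10 (SE 0.21) at 4 h. The part of the summed signal in the ratios of miR-192, miR-194 and miR-215 was not tested.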

How the data were processed

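The authors deposited, for each of 4 arrays, the Feature Extraction 10.7.3.1 output with the background-subtracted intensity of each spot, probe and miRNA, not scaled between arrays. A second deposited table holds only the authors' own ratios of berberine over control and was not used. Undetected miRNAs are written as 0.1, and 599 human miRNAs were detected on none of the arrays.

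The log2 of each total signal was scaled by subtracting the 75th percentile of its array, taken over 197 human miRNAs with detection on all 4. A ratio needed detection on both arrays. Its SE came from the errors of Feature Extraction, and ranges are 1.96 SE. The arrays' number limits the precision. The limma model (limma 3.58.1, R 4.3.3) had terms for treatment and time and called a miRNA at a Benjamini-Hochberg adjusted p under 0.05. It was run on simulated data with equal noise for every miRNA and large changes alike at both times. That setting is unlike these data, so it does not show how the model performs on them. Python 3.11.15 and numpy 2.4.6 were used.

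The miRNAs, the lists and the tests were chosen with earlier results of these data known. Named were the 3 miRNAs, the other strands of their hairpins, miRNAs sharing a seed, the 3 nearest in pattern to each, and the brightest or defining members of the lists. miRNA sequences and positions came from RefSeq (GRCh38.p14). Alternatives were other scalings, probe summaries, filters and limma settings. The setting with the brightest probe of each miRNA also changes the scaling of the arrays. A sum restricted to probes shared by the arrays, the pairs of berberine with the control of the other time, the median scaling of single probes, and the probe ratios without the highest spot, were added after the data were seen.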

Additional observations from a re-analysis of the deposited data

Results flagged for a closer look

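For miR-192, miR-194 and miR-215, berberine lay below its control at 2 h and above it at 4 h with the scaling used here. The log2 ratio at 4 h minus that at 2 h was 0.25 (SE 0.21) for miR-192, 0.37 (SE 0.22) for miR-194 and 0.18 (SE 0.20) for miR-215, all within 1.96 SE of 0. This difference was not tested, since each time has 1 array on either side. With scaling to the median, miR-192 and miR-215 were below the control at both times (-0.02 and -0.01 at 4 h). Under quantile normalization no log2 ratio at 2 h was below 0, at 0.00 for miR-192, 0.03 for miR-194 and 0.04 for miR-215.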

How the results depend on the processing

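No paired analysis was possible because each condition has 1 array, so replicate numbers pair nothing beyond the time point, which the limma model already holds as a term. Normexp used the median spot signal, since no mean signal is given, and a slide block does not apply to 1 slide. Values run miR-192, miR-194, miR-215, and causes were not tested unless named.

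Without scaling, the log2 ratios were -0.63, -0.58 and -0.54 at 2 h and 0.55, 0.72 and 0.56 at 4 h. When the 75th percentile was taken over all human miRNAs, which at 2 h met the floor value of 0.1 in the berberine sample, they were 5.00, 5.05 and 5.09 at 2 h, -0.25, -0.086 and -0.25 at 4 h, and 0.37, 0.22 and 0.43 between the controls. Under the 6 other alternatives no ratio at 2 h or 4 h moved by more than 1.96 SE or passed 2-fold. With scaling to the median, the ratios at 4 h were -0.02 and -0.01 for miR-192 and miR-215 and 0.15 for miR-194, within 1.96 SE of 0 (SE 0.16). The 30 values of the differences between the 3 miRNAs ran from -0.22 to 0.19.

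Over both times in limma, the mean of miR-192 turned to -0.068 with scaling to the median, -0.039 without scaling and -0.049 with the brightest probe, and that of miR-215 to -0.022 with scaling to the median. With the percentile over all human miRNAs the means were 2.37, 2.48 and 2.42. Leaving out 1 array, which leaves residual degrees of freedom only if the time point is dropped too, it ran from -0.044 to 0.09 for miR-192, -0.0090 to 0.27 for miR-194, and 0.02 to 0.12 for miR-215. Without the control array at 4 h, miR-192 and miR-194 were at -0.044 and -0.0090, and without the berberine array at 4 h miR-192 was at -0.034. The adjusted p of the 3 was between 0.444 and 1 under all 16 alternatives.

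The number past 2-fold, 2 of 197 at 2 h, was 197 with the percentile over all human miRNAs, 11 without scaling, 9 with quantile normalization, 4 with the brightest probe, 1 with the mean of all probes, 1 with normexp and 0 above the median signal. At 4 h, 2 of 218, it was 7, 12, 18, 5 and, with normexp and above the median signal, 0. The number called by limma, 1, was 2 with the mean of all probes and 0 with the other scalings, quantile normalization, the brightest probe, normexp, no time point, or the median filter. Leaving out 1 array as well as the time point gave 0 to 1, with 1 only without the berberine array at 4 h.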
